A study of Mus musculus with 5 samples.

Results

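Nfil3, Dbp, Tef and Hlf encode the bZIP transcription factors that act on D-box elements, and they are described here in reperfused mouse hearts with and without prior block of the clock repressor REV-ERB alpha. The 4 genes were taken by symbol, and all 4 had a probe with that symbol alone and entered the test, out of 15294 genes tested. Nfil3, Dbp and Hlf had 1 such probe each and Tef had 2, and the probe with the highest mean over the arrays stands for each gene. Values are on the log2 scale after RMA (robust multi-array average) and come from Affymetrix whole-transcript arrays of total RNA. Because probes differ in affinity, a value is read across arrays and never against another gene's value.

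All 5 hearts came from wildtype C57Bl6J mice and were taken at zeitgeber time 12, the hours counted from lights on. Each heart was perfused outside the body on a Langendorff apparatus for 20 min, left without flow for 20 min and then reperfused for 20 min before freezing. The antagonist group (n = 3) came from mice that had received a REV-ERB alpha antagonist into the peritoneum, 4 h and 1 h before the perfusion, at 10 µM as labelled. The sham group (n = 2) went through the same perfusion, ischemia and reperfusion without the antagonist. Neither the compound nor any vehicle injection is named, and no age is given for the mice. Both groups were ischemic and reperfused, so the effect of ischemia itself was not compared. Without a non-ischemic group, an effect of the antagonist cannot be told apart from a changed response to ischemia and reperfusion. With no vehicle injection recorded for sham, the compound cannot be told apart from the injections. Each array is labelled as a biological replicate. Antagonist replicate 2 stood apart for atrial markers (mean log2 value 8.45, against 6.58 to 6.94 on the other arrays) and adipocyte markers (6.79, against 4.83 to 5.19), so the members' differences are also given without it.

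The D-box is a short palindrome-like DNA element found in clock and clock output genes. DBP, TEF and HLF are the PAR bZIP factors, named for a region rich in proline and acidic amino acids, and they activate transcription from D-boxes. NFIL3, also called E4BP4, binds the same element but lacks that region and represses. The factors are fed by different arms of the clock: Dbp is driven by CLOCK and BMAL1 through E-boxes, while Nfil3 is repressed by REV-ERB alpha and activated by ROR receptors through RORE elements. In the heart, as in other tissues, the balance of both arms gives D-box genes their daily rhythm.

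The stretches of sequence upstream of the members' start sites are shown because the arms of the clock that feed them differ in the element they use. They come from RefSeq on build GRCm38.p6, and windows for 4 of the 4 members were found. Each window runs from 250 bases before to 50 bases after the start site that the table uses, which for Nfil3 and Dbp lies inside the annotated gene and is not its outermost end. Both strands were searched for the D-box words TTATGTAA and TTACGTAA, the E-box CACGTG, the RORE hexamer AGGTCA and the core of the cyclic AMP response element TGACG, and capitals mark every match. Only bases before the start site are printed.

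Nfil3, chr13:52981040-52981289, minus strand: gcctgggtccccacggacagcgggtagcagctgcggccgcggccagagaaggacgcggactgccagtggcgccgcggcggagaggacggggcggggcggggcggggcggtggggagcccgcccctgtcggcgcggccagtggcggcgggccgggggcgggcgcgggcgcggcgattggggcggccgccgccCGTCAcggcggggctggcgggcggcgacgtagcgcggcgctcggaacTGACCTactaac
Dbp, chr7:45704997-45705246, plus strand: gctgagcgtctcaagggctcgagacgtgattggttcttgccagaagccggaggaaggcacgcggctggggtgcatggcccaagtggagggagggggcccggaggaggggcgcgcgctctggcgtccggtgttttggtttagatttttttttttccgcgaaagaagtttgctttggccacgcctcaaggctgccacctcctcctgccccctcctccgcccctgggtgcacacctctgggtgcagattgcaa
Tef, window 1, chr15:81802519-81802578, plus strand: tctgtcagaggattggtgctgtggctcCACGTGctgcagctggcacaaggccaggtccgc
Tef, window 2, chr15:81811249-81811308, plus strand: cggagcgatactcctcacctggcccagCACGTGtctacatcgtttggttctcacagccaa
Hlf, chr11:90390918-90390977, minus strand: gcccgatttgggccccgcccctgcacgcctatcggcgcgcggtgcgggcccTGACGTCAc

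The RORE hexamer occurred once in the Nfil3 window, on the reverse strand (printed as TGACCT) and beginning at position -12 from the start site, and it occurred in 16.3% of all 32851 windows. Both Tef windows held an E-box, beginning at -127 and -138, compared with 7.15% of all windows. The Hlf window held the cyclic AMP response core on both strands in 1 overlapping palindrome, beginning at -9 and -6, and the Nfil3 window held it once at -59 on the reverse strand. That core is common, with a match in 20.8% of windows. The Dbp window held none of the searched words, and no member's window held a D-box word, which 1.06% of all windows did. The Nfil3 stretch consisted of G and C for 81.6% of its bases with 43 CG dinucleotides, and the Dbp stretch for 62.4% with 16. A match describes letters in these windows and is not evidence of binding.

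Nfil3, the repressor of the set (Entrez Gene 18030), was higher in each of the 3 antagonist hearts than in either sham heart. Its log2 value was 5.90 on sham replicate 1 and 5.91 on sham replicate 2. On antagonist replicates 1, 2 and 3 it was 6.71, 6.48 and 6.54. The sham values lay within 0.011 of each other, the antagonist values spread over 0.23, and a gap of 0.57 separated the groups. The means were 5.90 ± 0.0076 (SD, n = 2) in sham and 6.57 ± 0.12 (SD, n = 3) with the antagonist. The log2 difference was 0.67 with a limma SE of 0.081 and a 95% interval of 0.44 to 0.90, equal to 1.59-fold (1.35 to 1.87).

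The Nfil3 difference did not pass the test over all genes. The limma adjusted p was 0.62 and the unadjusted p 0.0017, a value that 0.262% of the tested genes reached or undercut. The 5 arrays can be divided 10 ways, and an exact permutation of the labels (two-sided) gave p = 0.10, the smallest value this design allows. Among the 15294 genes, 53 (0.347%) were higher with the antagonist by at least as much as Nfil3, itself included, and 10 (0.0654%) had a gap between the groups at least as wide. The antagonist replicate with the lowest Nfil3 value was replicate 2, and without it the difference was 0.72. In whole tissue, a changed number of cells of a type and a changed amount of RNA per cell cannot be told apart, for Nfil3 or for the other members.

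Dbp, the D-box activator with the largest daily swing in many tissues (Entrez Gene 13170), was lower in each of the 3 antagonist hearts than in either sham heart. It measured 8.83 on sham replicate 1 and 9.08 on sham replicate 2. On antagonist replicates 1, 2 and 3 it measured 8.55, 8.56 and 8.27. Antagonist replicate 3 was the lowest array and sham replicate 2 the highest, and the gap of 0.27 between the groups was about as wide as the range inside sham (0.25) and inside antagonist (0.29). The means were 8.95 ± 0.18 (SD, n = 2) and 8.46 ± 0.17 (SD, n = 3).

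The log2 difference of Dbp was -0.50 with a limma SE of 0.14 and a 95% interval of -0.90 to -0.096, or 0.709-fold (0.537 to 0.936). It did not pass over all genes (limma adjusted p = 0.64, unadjusted 0.027), and 2.84% of the tested genes had an unadjusted p as small. The exact two-sided permutation p was 0.10, again the smallest possible. In the same direction, 70 genes (0.458%) differed by at least as much. Leaving out sham replicate 2 gave -0.37 and leaving out sham replicate 1 gave -0.62. Without antagonist replicate 2 the difference was -0.55.

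Tef, a D-box activator that is rhythmic in many tissues (Entrez Gene 21685), differed by less than the spread between the sham hearts. Its main probe read 6.06 and 6.20 on sham replicates 1 and 2, and 6.08, 6.04 and 6.06 on antagonist replicates 1, 2 and 3. Sham replicate 2 stood above the other 4 arrays, which lay within 6.04 to 6.08, and the groups overlapped. The log2 difference was -0.071 (limma SE 0.049) with a 95% interval of -0.21 to 0.069 and a limma adjusted p of 0.64, and the exact permutation p was 0.30. The other Tef probe differed by 0.019, the opposite sign, with values of 3.65 and 3.61 in sham and 3.65 on all 3 antagonist arrays. Without sham replicate 2 the main probe differed by -0.0025, and without antagonist replicate 2 by -0.062.

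Hlf, the remaining D-box activator (Entrez Gene 217082), also differed little between the groups. It read 6.44 and 6.50 on sham replicates 1 and 2, and 6.44, 6.44 and 6.42 on antagonist replicates 1, 2 and 3. Sham replicate 1 and antagonist replicates 1 and 2 carried exactly the same value, so the 5 arrays held 3 different values. The log2 difference was -0.037 (limma SE 0.025) with a 95% interval of -0.11 to 0.034 and a limma adjusted p of 0.64, and the exact permutation p was 0.30. Without sham replicate 2 it was -0.0049, without sham replicate 1 it was -0.069, and without antagonist replicate 2 it was -0.039. The intervals of Tef and Hlf reach down to 0.863-fold and 0.928-fold.

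**Figure D1:**
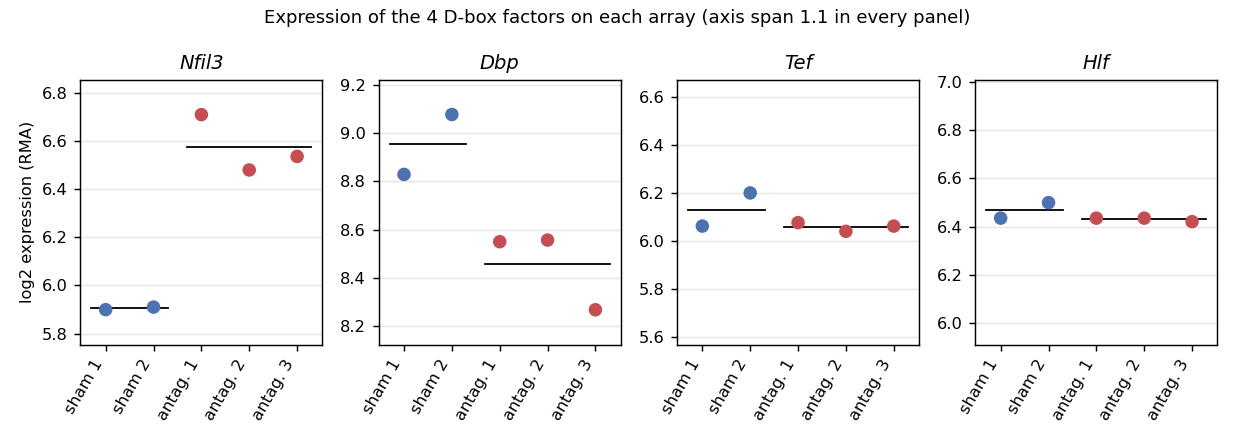
The log2 expression value (RMA) of the main probe of Nfil3, Dbp, Tef and Hlf is plotted for each of the 5 arrays, with sham in blue, antagonist in red and the group mean as a line. Each panel spans 1.1 on the log2 axis around its own centre; the groups are apart for Nfil3 (gap 0.57) and Dbp (gap 0.27), and the Tef and Hlf points lie within ranges of 0.16 and 0.079.

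At an adjusted p under 0.05 limma called 0 of the 15294 genes (0%) and 0 of the 4 members, and the smallest adjusted p of any gene was 0.60. At an unadjusted p under 0.05 it marked 704 genes, or 4.60%, and 2 of the 4 members, Nfil3 and Dbp. Dbp was not past that threshold under 6 of the alternatives. In limma its unadjusted p-value was 0.10 with array weights and 0.073 with the replicate block. Leaving out a sham heart gave 0.051 (replicate 1) and 0.14 (replicate 2), and leaving out an antagonist heart gave 0.058 (replicate 1) and 0.056 (replicate 2). The groups did not overlap, with the antagonist higher, for 6.19% of genes and for 1 member, and with the antagonist lower for 6.33% of genes and for 1 member. Ties lower these shares: for 73.9% of genes at least 1 value recurred among the 5 arrays, and a tie between groups removes the gap. Nfil3 and Dbp each had 5 different values, and among the 3991 genes of that kind 15.1% lay higher and 15.9% lower without overlap.

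**Figure D2:**
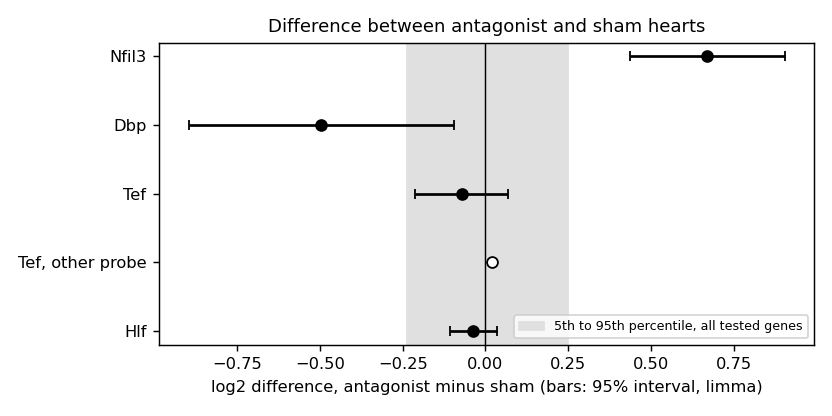
The log2 difference between antagonist and sham hearts is plotted for the main probe of each gene with its 95% interval from limma, and as an open point without an interval for the other Tef probe. The grey band runs from the 5th to the 95th percentile of the difference over all 15294 genes (-0.24 to 0.25); Nfil3 at 0.67 and Dbp at -0.50 lie outside it, and Tef and Hlf lie inside.

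The balance of the repressor against Dbp was shifted towards Nfil3 in every antagonist heart. The log2 value of Nfil3 minus that of Dbp, which cancels anything that scales a whole array, was -2.93 and -3.17 on sham replicates 1 and 2. It was -1.84, -2.08 and -1.73 on antagonist replicates 1, 2 and 3. All 3 antagonist arrays were above both sham arrays, by a gap of 0.85. Since Nfil3 was higher and Dbp lower without overlap, this separation follows from those results and is not a further one. The mean balance was -3.05 ± 0.17 (SD, n = 2) in sham and -1.88 ± 0.18 (SD, n = 3) with the antagonist, a change of 1.17, so that the ratio of Nfil3 to Dbp signal was 2.24 times that in sham. The level of the balance depends on the probes and has no meaning of its own, and no p is given for a score built from the members.

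The change of balance was smaller against the other activators, since neither of these differed much. Nfil3 minus Tef changed by 0.74 and Nfil3 minus Hlf by 0.71, with gaps of 0.60 and 0.58. These gaps mostly restate the gap of 0.57 in Nfil3 itself. Against the mean of the 3 activators the balance went from -1.28 ± 0.099 (SD, n = 2) to -0.41 ± 0.11 (SD, n = 3), a change of 0.87. Dbp was also lower relative to the other activators. Dbp minus Tef was 2.77 and 2.88 in sham, compared with 2.47, 2.52 and 2.20 with the antagonist, a change of -0.42. Inside the antagonist group Nfil3 and Dbp were not mirror images. Replicate 1 had the highest Nfil3 value, whereas replicate 3 had the lowest Dbp value and the highest balance. With single arrays left out the change in the Nfil3 to Dbp balance ranged from 1.05 (without sham replicate 2) to 1.29 (without sham replicate 1), and it was 1.26 without antagonist replicate 2.

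**Figure D3:**
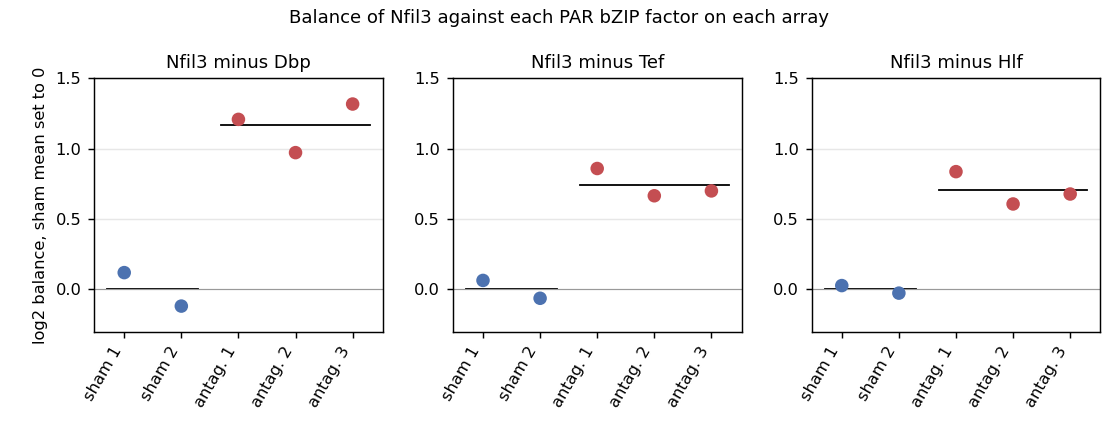
The within-array log2 balance of Nfil3 against Dbp, Tef and Hlf is plotted for each array after setting the sham mean to 0, with sham in blue, antagonist in red and group means as lines. The antagonist means lie 1.17, 0.74 and 0.71 above sham, and the 3 antagonist arrays are above both sham arrays in every panel. This separation follows from the members' own values and is not a separate result.

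**Figure D4:**
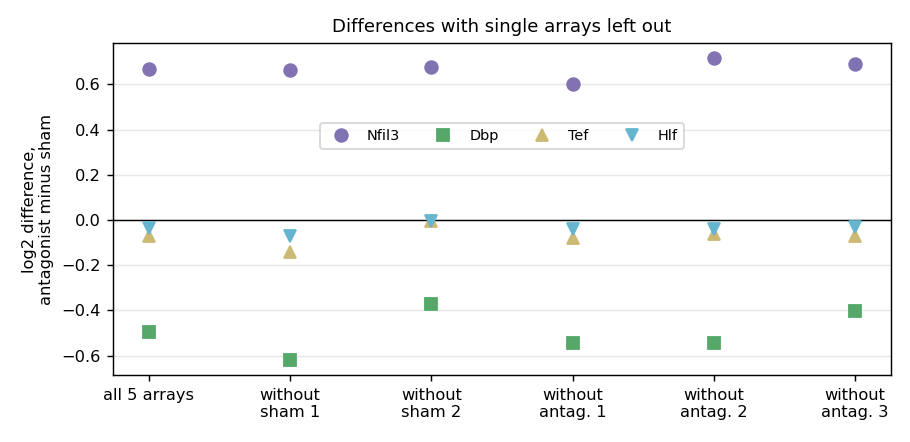
The log2 difference between antagonist and sham is plotted for the 4 genes with all 5 arrays and with each array left out in turn. Nfil3 stays between 0.60 and 0.72 and Dbp between -0.62 and -0.37, while Tef and Hlf come to -0.0025 and -0.0049 without sham replicate 2.

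Among the E-box genes that drive or restrain the PAR bZIP genes, 10 of 11 listed genes were tested and 0 passed at an adjusted p under 0.05. Their differences were above 0 for 3, below 0 for 6 and exactly 0 for 1, with a median of -0.032. Over all tested genes 47.7% lay above 0 and 46.3% below, with a median of 0. The list's median was -0.0084 without antagonist replicate 1, -0.053 without sham replicate 2 and -0.051 after a second quantile normalization. Arntl, which encodes the activator BMAL1, read 4.21 and 4.57 in sham and 4.70, 4.79 and 4.66 with the antagonist, a log2 difference of 0.33 that was 0.15 without sham replicate 1. Cry1, a repressor of CLOCK and BMAL1, differed by 0.073, or 0.021 without antagonist replicate 1. Bhlhe41, another E-box repressor, read 6.57 and 6.76 in sham and 6.47, 6.18 and 6.19 with the antagonist (log2 difference -0.38). Per3, a period gene that carries D-boxes, read 6.75 and 6.62 in sham and 6.44, 6.53 and 6.47 with the antagonist (log2 difference -0.20). These 4 were the list members whose groups did not overlap, 2 in each direction. Over all tested genes 6.19% lay higher and 6.33% lower without overlap. Among genes with 5 different values, as Arntl, Bhlhe41 and Per3 had, 15.1% lay higher and 15.9% lower.

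Of the REV-ERB and ROR receptors and their corepressors, which act on Nfil3, 7 of 10 listed genes were tested. The differences were below 0 for 6 and above 0 for 1, with a median of -0.082 beside 0 over all tested genes, and 0 passed the adjusted test. The median was -0.034 without sham replicate 1, and 5 were below and 2 above 0 without sham replicate 2 or without antagonist replicate 3. Nr1d1, which encodes REV-ERB alpha itself, read 7.60 and 7.77 in sham and 7.71, 7.44 and 7.05 with the antagonist. Its groups overlapped, and the log2 difference of -0.28 became -0.11 without antagonist replicate 3, the array that also had the lowest Dbp value. Rorb, a ROR receptor gene, read 4.98 and 4.58 in sham and 4.43, 4.32 and 4.36 with the antagonist. Its log2 difference of -0.41 was -0.22 without sham replicate 1. The corepressor subunit gene Hdac3 differed by -0.082, or -0.0071 without sham replicate 2 and -0.16 without sham replicate 1.

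Of 8 listed clock genes in which a D-box has been described, 7 were tested and 0 passed the adjusted test. The differences were below 0 for 6, compared with 46.3% of all tested genes, and above 0 for 1 (Cry1), with a median log2 difference of -0.12 beside 0 over all tested genes. The median was -0.20 without sham replicate 2 and -0.075 without sham replicate 1, and the count of 6 below 0 was the same with each array left out in turn. Per3 and Rorb lay lower without overlap of the groups, as did 6.33% of all tested genes. Several of these genes also belong to the lists above, so the lists are not independent of one another. Per2 was not analysed here, since its symbol was not the sole one on any probe.

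Per3 is shown because it was the 1 tested gene of the clock lists whose promoter window held a D-box word, and TTATGTAA stood at 2 places on the printed strand, beginning at -205 and -158. The capitals mark the words. Its log2 difference of -0.20 (limma SE 0.057, adjusted p = 0.64) was -0.14 without sham replicate 1.

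Per3, chr4:151044796-151044890, minus strand, GRCm38.p6: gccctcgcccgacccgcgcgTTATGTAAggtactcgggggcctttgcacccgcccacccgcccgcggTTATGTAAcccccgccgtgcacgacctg

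Output genes described for the PAR bZIP factors, mainly enzymes and regulators of detoxification in liver, gave no adjusted call. Of 10 listed genes 5 were tested and 4 lay below the level filter, and the 5 tested differences were above 0, as were 47.7% of all tested genes. The groups overlapped for each of the 5. Their median log2 difference of 0.13 was 0.080 without sham replicate 1 and 0.047, 0.046 and 0.032 without antagonist replicate 1, 2 or 3, and without replicate 3 the count above 0 was 4. Cyp2b10, a cytochrome P450 gene, was at 3.74 on both sham arrays and antagonist replicate 1, 3.55 on antagonist replicate 2 and 4.59 on antagonist replicate 3, and its difference of 0.22 was -0.094 without replicate 3. Nr1i3, the gene of the nuclear receptor CAR, differed by 0.16, or 0.046 without antagonist replicate 2. Its sham mean of 3.34 lay below the level filter of 3.42, and its antagonist mean was 3.50. It passed the filter only through the antagonist arrays, which fixed its direction in the count above 0. Alas1, the rate-limiting enzyme of heme synthesis, read 9.52 and 9.62 in sham and 9.87, 9.62 and 9.62 with the antagonist. Its difference of 0.13 was 0.047 without antagonist replicate 1.

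Genes described as targets of NFIL3 in immune cells and liver gave few measurable values. Of 12 listed genes 6 were tested, with 4 above and 2 below 0, a median log2 difference of 0.053 and 0 adjusted calls. The median was 0.032 without sham replicate 2, and 3 were above and 3 below 0 without antagonist replicate 1 or without antagonist replicate 2. Pck1, a gluconeogenic and fat cell enzyme gene, read 4.64 and 4.33 in sham and 4.54, 6.77 and 4.64 with the antagonist. Its difference of 0.83 was 0.11 without antagonist replicate 2. The other 5 tested genes differed by at most 0.11, the value of the cytokine gene Il10, which was 0.045 without antagonist replicate 3 and 0.064 without sham replicate 2. The C/EBP factors, bZIP proteins whose sites resemble the D-box, gave 3 above 0, 2 below and 1 at 0 of 6 tested, with a median of 0.084 that was -0.0030 without sham replicate 1, 0.030 without antagonist replicate 2 and 0.16 without antagonist replicate 3. Cebpg read 6.65 and 6.80 in sham and 6.95, 7.35 and 6.95 with the antagonist (difference 0.35, or 0.22 without antagonist replicate 2). It was the one whose groups were apart, and 6.19% of all tested genes lay higher without overlap. Cebpb differed by 0.18, or -0.0059 without sham replicate 1.

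**Figure D5:**
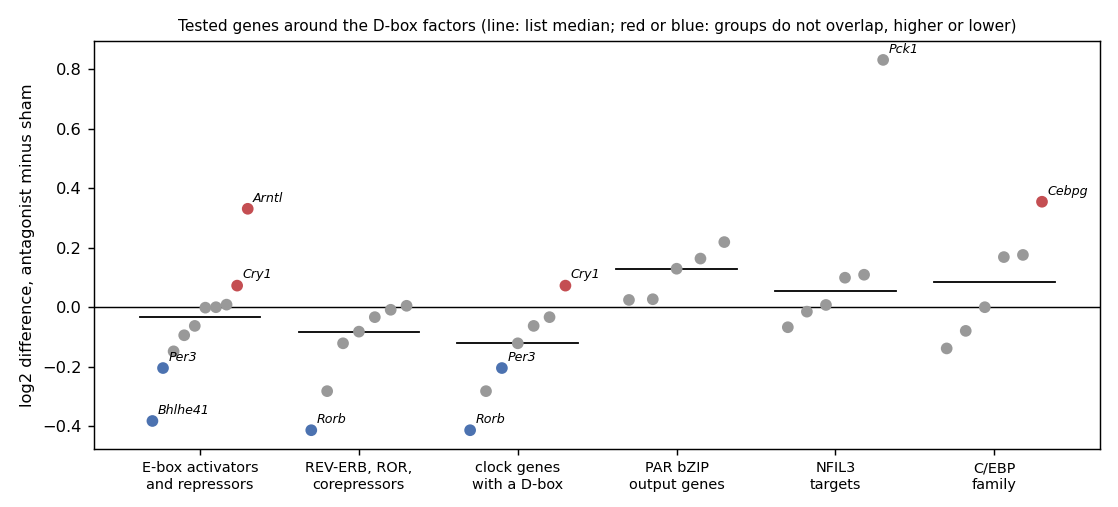
Each point is the log2 difference between antagonist and sham hearts of 1 tested gene in 1 of 6 lists, the line is the list's median, and red or blue marks a gene whose groups do not overlap, higher or lower with the antagonist. The lists' medians run from -0.12 for clock genes with a D-box to 0.13 for PAR bZIP output genes, the latter 0.032 to 0.047 with any 1 antagonist array left out, and Pck1 at 0.83 rests on antagonist replicate 2.

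The arrays' cell type markers bear on how far these values describe heart muscle. The 11 cardiomyocyte markers averaged 11.6 to 11.7 on every array. On antagonist replicate 2, with its high atrial and adipocyte markers, Pck1 was highest, and Nfil3 was lowest among the antagonist arrays. Dbp was 8.56 there, close to the 8.55 of antagonist replicate 1. Macrophage markers averaged 6.96 to 6.98 in sham and 6.99 to 7.15 with the antagonist, with 6 of 10 above 0, and their part in the Nfil3 difference was not tested. Of 12 natural killer and T cell markers, cells in which NFIL3 has known roles, 6 were below the level filter of 3.42. The tested 6 averaged 4.11 to 4.14 in sham and 4.12 to 4.16 with the antagonist, and their part in the Nfil3 difference was not tested. Fibroblast markers averaged 7.59 and 7.88 in sham and 7.52, 7.66 and 7.47 with the antagonist, with 6 of 8 below 0 and a median of -0.20 that was -0.035 without sham replicate 2. Sham replicate 2 was highest and antagonist replicate 3 lowest, as for Dbp. The marker mean was higher on antagonist replicate 2 (7.66) than on sham replicate 1 (7.59), whereas Dbp was lower there (8.56 and 8.83). The part of the fibroblast markers in the Dbp difference was not tested.

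With predicted genes left out, the genes closest to Nfil3 in profile over the 5 arrays were Lrfn1, Arfip1, Ppp1r3c, Herpud1 and Arrdc2. Predicted genes are those with names starting with Gm and a digit or ending in Rik, and they were left out for Dbp too. Lrfn1 read 3.27 and 3.36 in sham, both below the level filter of 3.42, and 4.10, 3.94 and 3.84 with the antagonist. It entered the tested genes only through the antagonist arrays. Likeness was the root mean square distance between values centred on each gene's mean, which ran from 0.057 for Lrfn1 to 0.11 for Arrdc2, beside a root mean square of 0.34 for Nfil3 around its own mean. Herpud1, of the protein degradation machinery of the endoplasmic reticulum, read 10.2 and 10.3 in sham and 10.8, 10.6 and 10.8 with the antagonist. Ppp1r3c, a glycogen-targeting subunit of protein phosphatase 1, differed by 0.47. For Dbp the closest were Aplnr, Lum, Map2k6, Gja1 and P2rx7, at distances of 0.067 to 0.076 beside 0.28 for Dbp itself. Gja1, the main ventricular connexin gene, read 9.91 and 10.0 in sham and 9.66, 9.56 and 9.40 with the antagonist, and Aplnr, the apelin receptor gene, differed by -0.60. Lum, the lumican gene, is 1 of the fibroblast markers. Within a distance of 0.1, predicted genes included, lay 3 genes for Nfil3 and 12 for Dbp, and 5 arrays are too few for a correlation. All these genes were picked for their likeness on these same arrays, so their differences between the groups follow from the choice.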

How the data were processed

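Total RNA of 5 hearts (2 sham, 3 antagonist) was measured on whole-transcript arrays, from 300 ng per sample per the labels' protocols. The authors' deposited table holds log2 values from RMA, per the submitters' processing notes; for its version, the probe library and the build, the sources used here say nothing. Scanner files were not used. Of 41345 probes, 23521 had 1 gene symbol in the platform annotation and 1814 had several. For each of 22180 symbols the probe of highest mean was kept, and 15294 genes were tested whose mean reached 3.42, the 40th percentile over all probes. A fit of group means without covariates was made in limma 3.58.1 (R 4.3.3), its p-values being two-sided and adjusted by Benjamini and Hochberg's method across the tested genes, with a threshold of 0.05. The prior degrees of freedom were 0.69 beside 3 residual ones. The script was checked on data with known answers.

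The named genes were the 4 members, list members with an unadjusted p under 0.05 or with groups apart, and the 2 largest differences of each list. With predicted genes left out, the 5 genes nearest to Nfil3 and to Dbp in profile were named too. Alas1, Hdac3 and the marker values were given beside them. The members and lists were chosen with earlier results of these data known. The number of arrays limits the precision. Alternatives covered the filter, normalization, probe choice, eBayes options, array weights, a replicate block and each array left out.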

Additional observations from a re-analysis of the deposited data

How the results depend on the processing

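The directions of all 4 members' differences and of the Nfil3 to Dbp balance were the same under each alternative run, and no member passed an adjusted p under 0.05 in any (limma; the adjusted p of Nfil3 ranged from 0.11 to 0.94 and that of Dbp from 0.30 to 0.94). The number of genes past that threshold was 0 as reported, with 704 at an unadjusted p under 0.05, and ranged from 0 to 2058 with single arrays left out: 1319 without sham replicate 1 and 2058 without sham replicate 2, where 92.6% and 78.6% of those genes had tied antagonist values, compared with 53.1% of all tested genes. A lone sham array is there assumed to vary like the antagonist group. Tef ranged from -0.14 to -0.0025 and Hlf from -0.069 to -0.0049 with single arrays left out. With the replicate number as a block, Nfil3 differed by 0.69 (limma adjusted p = 0.74) and Dbp by -0.40 (0.74), and 0 genes passed; same-numbered deviations correlated at -0.11 and 0.027 across genes, but with 2 sham arrays these values cannot show whether the numbers pair the hearts, and no label says that they do. Centring and renormalization moved the median of all genes by at most 0.0017. Tef and Hlf, with tied values, could not be fitted in the set of genes with 5 different values. At an unadjusted p under 0.05 Nfil3 stayed past the threshold in each alternative and Dbp did not in 6, given above with the calls.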
